A study of Homo sapiens with 12 samples.

Results

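Untreated A549 cells were compared with untreated BEAS-2B cells, named B2B as in the study, across all genes. A549 is an established line from a human lung adenocarcinoma, and BEAS-2B is a line of non-cancerous human bronchial epithelial cells that were immortalised with viral genes. The members were the 2 libraries labelled A549 non-treatment (A549_NT) and the 2 labelled BEAS-2B non-treatment (B2B_NT), 4 of the 12 libraries of the series. Both lines carried the genotype label WT, were grown in DMEM/F-12 medium and received neither inhibitor, while the other 8 libraries came from the same lines after 72 h with 10 µM SR11302 or 50 µM SP600125. Polyadenylated RNA was sequenced, and the deposited values were reads counted per gene. Each side of the comparison was a single line, so features of cancer and features of these particular lines cannot be told apart. The p-values rest on a spread between libraries that was estimated over all 12, the 8 treated ones included. The sources do not say whether the 2 libraries of a line came from separate cultures, so this spread may not be one between cultures. Whether the NT cells received the solvent DMSO was not settled here, since the figure legends name it and the sample labels do not.

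Epithelial cells are held together by cadherin and claudin junctions and by keratin filaments, and they keep this state through transcription factors of their lineage. Mesenchymal cells instead deposit fibronectin and collagens and use N-cadherin, vimentin and an actin programme driven by SRF and YAP. Alveolar type II cells, from which A549 is taken to descend, are known for surfactant proteins, and bronchial basal cells for TP63 and KRT5. These defining markers were low or absent in the untreated libraries. The surfactant gene SFTPC had 0.111 and 0 CPM (reads of a gene relative to the library's total, scaled by the TMM method) in A549_NT and 0 and 0.0407 in B2B_NT, and SFTPB stayed at or under 0.743 CPM in all 4. The basal keratin KRT5 had 0.0479 and 0.122 CPM in B2B_NT, and TP63, the basal cell master regulator, had 0 and 0.0407. Both had more reads in A549_NT replicate 1 than in B2B_NT replicate 1, KRT5 14 against 1 and TP63 30 against 0. TP63 had a log2 fold change of 5.62 and was at least 11.6-fold higher in A549_NT replicate 1, against a floor of 3 counts. SCGB1A1, the secretoglobin of club cells, stayed at or under 0.122 CPM in every untreated library. Other genes on the lists of these cell types were present. ABCA3, the lipid transporter of alveolar lamellar bodies, had 73.8 and 62.3 CPM in A549_NT and 44.9 and 45.8 in B2B_NT, and 18 alveolar genes summed to 849 and 844 CPM against 525 and 529. Basal cell genes summed to 1042 and 1117 CPM in A549_NT and 1460 and 1442 in B2B_NT. The keratin KRT17 alone gave 388 and 418 CPM of the B2B_NT sums and 0.222 and 1.54 of the A549_NT sums. Such sums can rest on a few abundant members and do not identify a cell type.

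Gene counts came to 19868320 and 20455919 reads in A549_NT and to 20806421 and 24917854 in B2B_NT. Expression correlated at 0.993 and 0.994 between the libraries of a line and at 0.787 to 0.814 across lines (log2 CPM over 16373 genes). Replicate 2 of each untreated line stood apart in one respect. Among 41 genes with at least 100 CPM in A549_NT replicate 1 and under 1 CPM in B2B_NT replicate 1, B2B_NT replicate 2 held a median of 0.624% of the A549 level, against 0.0658% in replicate 1 and 0.0335 to 0.0503% in the 4 treated B2B libraries. In the other direction, 22 genes of B2B stood at a median of 0.353% of their B2B level in A549_NT replicate 2 and at 0.0368% in replicate 1, although the 4 treated A549 libraries held 0.112 to 0.254%. Choosing the genes on replicate 2 instead gave the same order, with 0.549% against 0.0248% over 10 genes in B2B_NT and 0.353% against 0.0329% over 14 genes in A549_NT. All 41 and all 22 genes were called at least 4-fold apart, which their choice on replicate 1 had largely fixed. Their fitted log2 fold changes ended at 8.98 and at -10.00. Folds that such reads moved by over 1.5 times are therefore given also without replicate 2 of both lines or as a bound from replicate 1, and the origin of these counts was not tested.

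**Figure D1:**
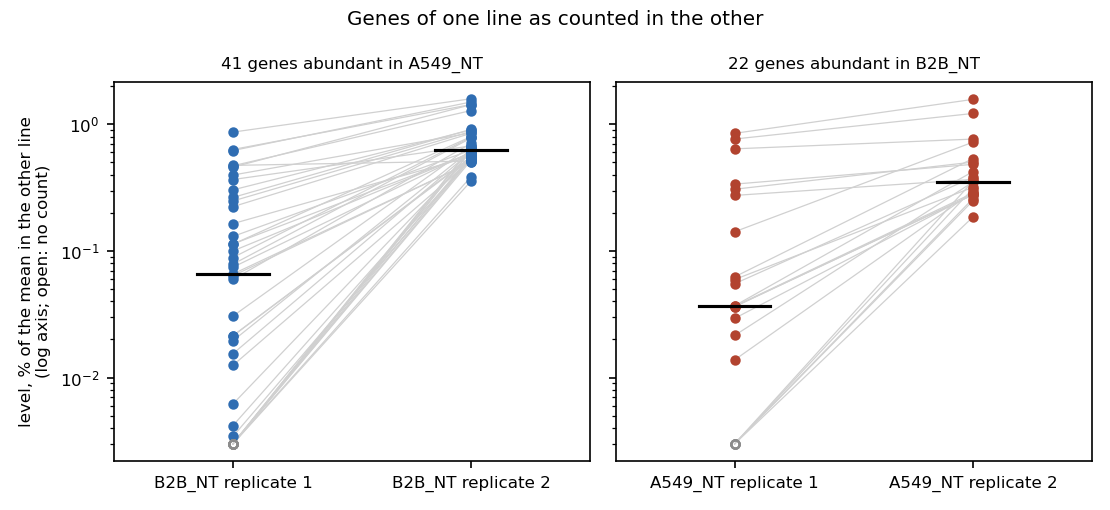
Level of genes of one line in the 2 libraries of the other, as a percent of their mean CPM in the line that expresses them (log axis), with 1 point per gene, lines joining the same gene and a bar at the median. The left panel shows 41 genes of A549_NT in B2B_NT (medians 0.0658% and 0.624%) and the right panel 22 genes of B2B_NT in A549_NT (medians 0.0368% and 0.353%), with replicate 2 higher in both.

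More genes differed between the lines than not. Of 16373 tested genes, 9316 were called (56.9%), by the quasi-likelihood test of edgeR at a Benjamini-Hochberg adjusted p under 0.05, together with a minimum of 0.5 for the size of the log2 fold change. A549_NT was higher in 4977 genes (30.4%) and lower in 4339 (26.5%). At least 4-fold differences numbered 2032 genes higher (12.4%) and 1495 lower (9.13%), and the median log2 fold change of all tested genes was 0.05. The counts of each gene list are read against these shares. Long noncoding RNAs held more 4-fold differences than protein-coding genes, with 20.7% of 886 higher and 13% lower against 11.7% and 8.87% of 14285. A count of 142 genes reached 10 CPM in both A549_NT libraries with under 0.1 CPM in B2B_NT replicate 1, and 98 genes the reverse. With replicate 2 of the other line also under 0.1 CPM, 33 and 34 genes were left.

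By abundance the lines were built on different messages. Per kilobase of exon, the ferritin light chain FTL was the highest of all genes in A549_NT, followed at ranks 3 and 4 by the aldo-keto reductase AKR1B10 and the retinaldehyde dehydrogenase ALDH1A1. The keratins KRT18 and KRT8 ranked 6 and 10 in A549_NT. In B2B_NT the fibronectin gene FN1 ranked 6, the matrix glycoprotein SPARC 14 and the collagen chain COL1A1 19. FTL, KRT8 and KRT18 have many processed copies in the genome, and reads shared with them were not counted.

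**Figure D2:**
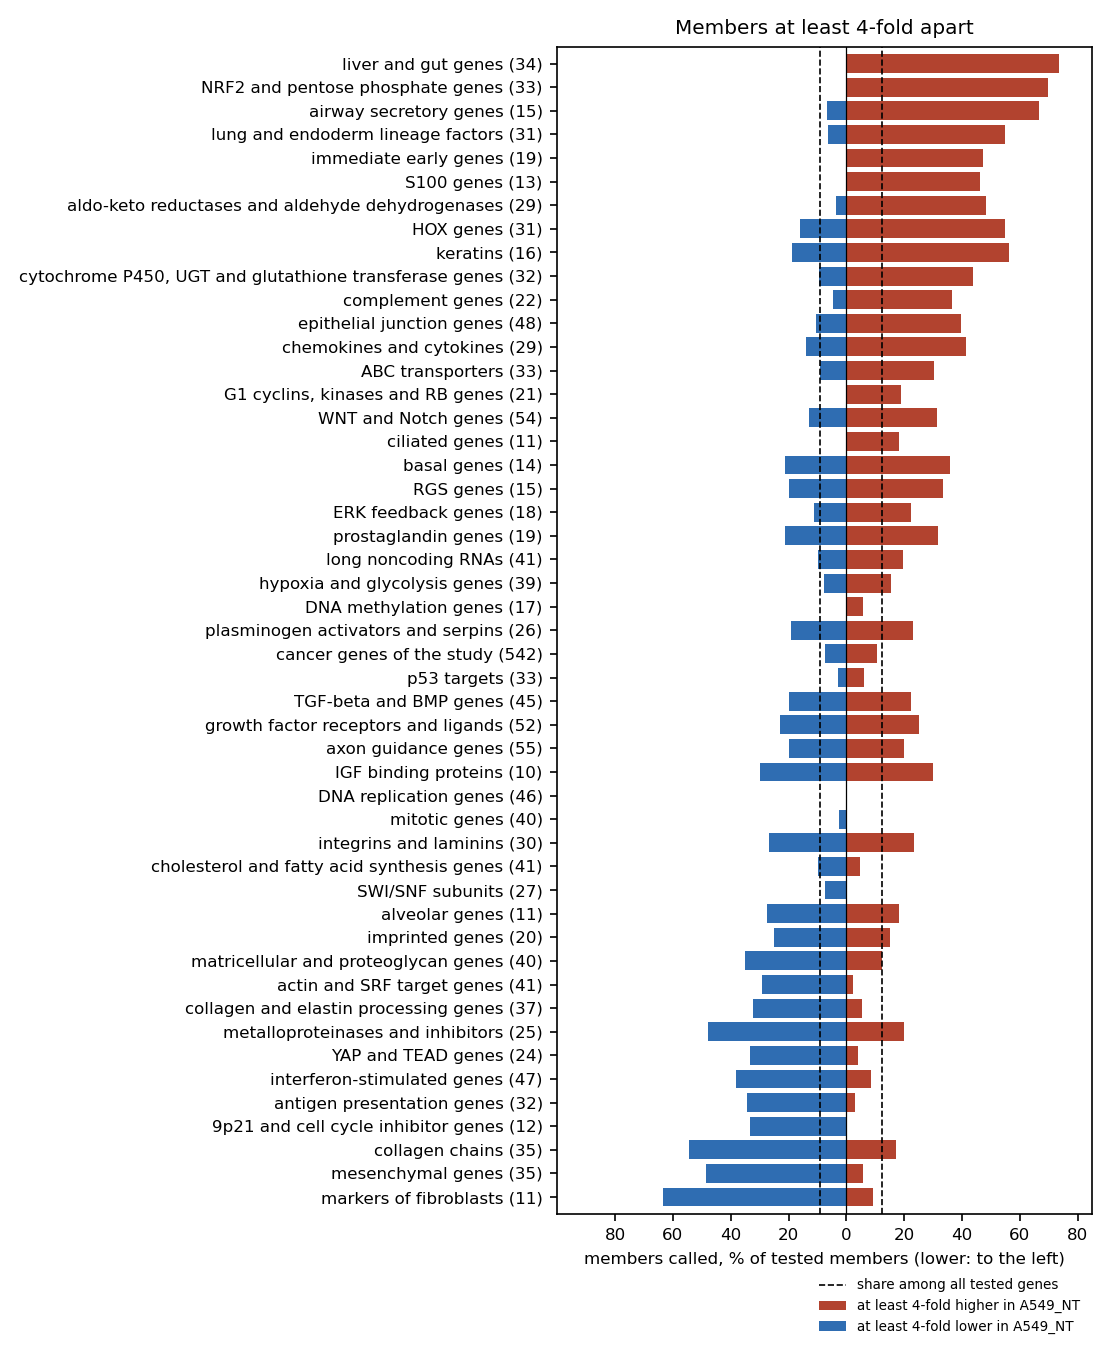
Share of the tested members of each gene list that was called at least 4-fold higher (right) or lower (left) in A549_NT than in B2B_NT, for lists of 10 or more tested members (number in brackets), with dashed lines at the shares among all tested genes (12.4% and 9.13%). Liver and gut genes (73.5%) and NRF2 genes (69.7%) lie far to the right, and fibroblast markers (63.6%) and collagen chains (54.3%) far to the left.

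A549_NT expressed transcription factors and secreted proteins of endoderm-derived organs that were at or near 0 in B2B_NT replicate 1. Of 31 tested lineage factors, 22 were higher in A549_NT and 5 lower, 17 and 2 of them at least 4-fold, with a median log2 fold change of 4.54, or 3.49 with its 4 members at the floor of 3 counts set to their bounds. HNF4A, the hepatocyte nuclear receptor, had 130 and 119.5 CPM in A549_NT and 0 and 0.651 in B2B_NT. Both A549_NT libraries lay far above both of B2B_NT, with a log2 fold change of 8.45 ± 0.41. The SE here and below comes from the fit over all 12 libraries, with n = 2 libraries per line. In replicate 1 alone HNF4A was at least 907-fold higher, against a floor of 3 counts in B2B_NT replicate 1. The forkhead factor FOXA2 had 58.7 and 58.0 CPM against 0 and 0.529 (7.65 ± 0.38, at least 408-fold in replicate 1), and the epithelial factor ELF3 had 310 and 281 against 0.335 and 1.75 (8.07 ± 0.31, and 9.82 without replicate 2 of both lines). FOXA1 went the other way, at 15.8 and 15.7 CPM in A549_NT against 24.4 in both B2B_NT libraries (-0.63 ± 0.19), a call that was lost without replicate 2 of both lines (adjusted p = 0.0965). NKX2-1, the lung lineage factor, was low in both lines. It had 0 and 0.0531 CPM in A549_NT and 2.44 and 2.85 in B2B_NT, a ratio of 98.1 (95% exact binomial interval 17.3 to 3905, counting error only).

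Genes of liver and gut were the list with the largest share at least 4-fold higher in A549_NT, among lists of 10 or more tested members. Of 34 tested, 27 were higher in A549_NT and 2 lower, and 25 were at least 4-fold higher, with a median log2 fold change of 4.46, or 4.36 with the members at the floor of 3 counts set to their bounds. TM4SF4, a tetraspanin-like protein of liver and intestine, had 179.9 and 183 CPM in A549_NT and 0 and 0.977 in B2B_NT (8.42 ± 0.41, at least 1252-fold in replicate 1). The carcinoembryonic adhesion proteins CEACAM6 (380.4 and 386 CPM against 0.0479 and 1.995) and CEACAM5 (80.5 and 80.0 against 0.0479 and 0.407) were called too, at 8.46 ± 0.49 and 8.34 ± 0.54, or 12.77 and 10.53 without replicate 2 of both lines, on 1 read each in B2B_NT replicate 1. The fibrinogen chains were present at low levels. FGB had 7.45 and 6.85 CPM against 0 and 0.0814, while albumin (ALB) stayed at or under 0.212 CPM in all 4 libraries and was not called (adjusted p = 0.138).

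Mucin genes followed the same pattern. Among 15 tested airway secretory genes, 11 were higher in A549_NT and 2 lower, 10 of the 11 at least 4-fold. MUC5AC, a gel-forming mucin of goblet cells, had 609.6 and 632 CPM in A549_NT and 0.0958 and 3.79 in B2B_NT (8.24 ± 0.53, and 12.54 without replicate 2 of both lines). MUC5B, its partner in airway mucus, had 793 and 752 CPM against 0.575 and 4.68 (8.14 ± 0.54, and 10.41 without replicate 2). Their regulators and helpers were higher as well. The goblet cell factor SPDEF had 17.2 and 15.8 CPM against 0 and 0.244, and AGR2, which folds mucins, had 85.1 and 79.1 against 0 and 0.366 (8.65 ± 0.38, at least 592-fold in replicate 1). Summed over 28 secretory genes the levels were 1591 and 1557 CPM in A549_NT and 68.9 and 85.2 in B2B_NT. Alveolar genes showed no such shift, with 5 higher and 4 lower of 11 tested, and of 11 ciliated genes 3 were higher and 1 lower.

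**Figure D3:**
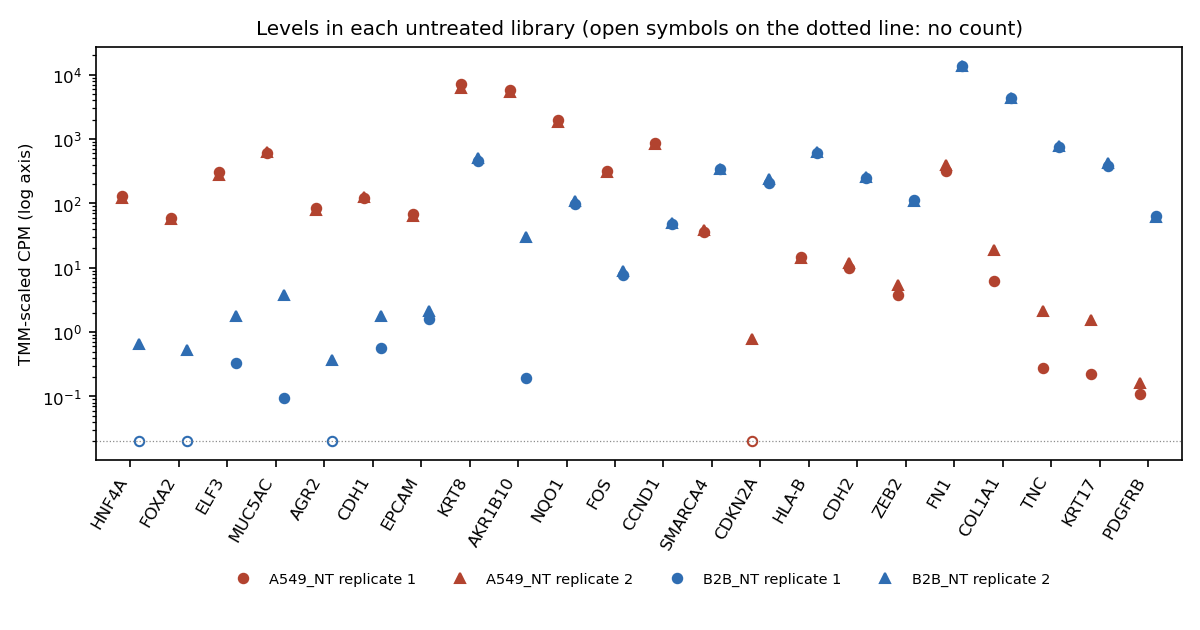
TMM-scaled CPM (log axis) of the genes on the x axis in each untreated library, A549_NT in red and B2B_NT in blue, with circles for replicate 1 and triangles for replicate 2, and open symbols on the dotted line where a library had no count. HNF4A, FOXA2 and AGR2 had no count in B2B_NT replicate 1 but 0.366 to 0.651 CPM in replicate 2, while KRT8, NQO1, CCND1, SMARCA4, HLA-B and CDH2 lay close together within a line.

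Junction genes separated the lines without a single direction. Of 48 tested, 30 were higher in A549_NT and 10 lower, 19 and 5 of them at least 4-fold, with a median log2 fold change of 1.63. CDH1, which encodes E-cadherin (chromosome 16), had 122 and 128 CPM in A549_NT and 0.575 and 1.79 in B2B_NT. The libraries did not overlap, and the log2 fold change was 6.67 ± 0.27, or 7.71 without replicate 2 of both lines. The adhesion molecule EPCAM had 67.6 and 63.6 CPM against 1.63 and 2.16 (5.10 ± 0.18), the splicing regulator ESRP1 5.84 and 5.15 against 0.0479 and 0.0814, and the pore-forming claudin CLDN2 189 and 176 against 0.144 and 1.42 (7.77 ± 0.41, and 10.30 without replicate 2). Other junction genes were higher in B2B_NT. CLDN11, a claudin, had 0.167 and 0.850 CPM against 118 and 117 (-7.82 ± 0.27, and -9.41 without replicate 2), and the tight junction protein OCLN 13.7 and 16.7 against 33.6 and 33.4 (-1.14 ± 0.14).

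Keratins, the intermediate filaments of epithelia, were called in all 16 tested cases, 13 higher and 3 lower in A549_NT. KRT8 (chromosome 12) had 7150 and 6339 CPM in A549_NT against 449.5 and 502 in B2B_NT (3.82 ± 0.15), and its partner KRT18 had 6052 and 5115 against 326 and 359.7 (4.03 ± 0.15). The hair-type keratin KRT81 had 1815 and 1522 CPM against 19.2 and 28.8 (6.12 ± 0.28), although reads of KRT81, KRT83 and KRT86 can align to one another. KRT17, a keratin of basal cells, was the clearest exception with 0.222 and 1.54 CPM in A549_NT against 388 and 418 in B2B_NT (-8.81 ± 0.36, and -10.73 without replicate 2 of both lines). Of 14 basal cell genes 7 were higher and 6 lower.

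Promoter windows of 300 bases, from 250 before to 50 after the start of a gene (RefSeq, GRCh38.p14), were matched to 11660 tested genes and searched on both strands. The letters CAGGTG, the E-box word that the repressors ZEB1, ZEB2 and SNAI2 can read, stood in 18.9% of all these windows. They stood in 26.9% of the windows of 1306 genes at least 4-fold higher in A549_NT, in 17.5% of 1038 genes at least 4-fold lower and in 17.8% of genes not called. A match describes letters and not binding. Among junction genes, 11 of 29 windows held the word, and 4 of the 8 members with a window and a 4-fold higher level did. CRB3, a polarity protein, and AP1M2, a sorting adaptor of epithelial cells, are shown for their 5 and 3 copies (INADL also had 3) and were chosen after their values were seen. The capitals mark the word on either strand. CRB3 (chr19:6464021-6464320, + strand) had 7.73 and 5.36 CPM in A549_NT against 0 and 0.122 in B2B_NT, and AP1M2 (chr19:10587263-10587562, - strand) 62.0 and 54.5 against 1.44 and 1.91.
CRB3: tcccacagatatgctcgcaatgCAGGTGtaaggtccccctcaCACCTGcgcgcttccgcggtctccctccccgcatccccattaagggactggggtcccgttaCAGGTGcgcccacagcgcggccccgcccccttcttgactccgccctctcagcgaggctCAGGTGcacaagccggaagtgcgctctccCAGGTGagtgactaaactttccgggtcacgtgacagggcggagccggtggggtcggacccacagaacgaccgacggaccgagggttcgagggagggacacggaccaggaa
AP1M2: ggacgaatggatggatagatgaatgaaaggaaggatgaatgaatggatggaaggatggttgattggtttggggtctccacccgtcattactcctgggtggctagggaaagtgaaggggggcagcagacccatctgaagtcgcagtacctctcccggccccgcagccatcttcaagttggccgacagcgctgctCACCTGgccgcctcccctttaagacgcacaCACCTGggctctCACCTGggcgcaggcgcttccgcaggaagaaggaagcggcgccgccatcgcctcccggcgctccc

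Of the repressors themselves, ZEB2 had 3.72 and 5.31 CPM in A549_NT against 114 and 109.9 in B2B_NT (-4.63 ± 0.22) and SNAI2 0 and 0.212 against 19.8 and 20.4 (-7.45 ± 0.41, at least 119-fold lower in replicate 1), whereas ZEB1 was not called, with 25.9 and 31.3 CPM against 24.8 and 20.3 (0.34 ± 0.18, adjusted p = 0.0965).

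Antioxidant genes were higher in A549_NT almost throughout. NRF2 is the transcription factor that induces enzymes against oxidants and electrophiles, and KEAP1 holds it in check. Of 33 tested NRF2 and pentose phosphate genes, 29 were higher in A549_NT and 1 lower, with 23 at least 4-fold higher and a median log2 fold change of 3.02. NQO1, a quinone reductase, had 1999 and 1861 CPM against 96.9 and 109 (4.23 ± 0.14). PGD, which makes NADPH in the pentose phosphate pathway, had 1755 and 1632 against 131 and 145 (3.61 ± 0.12). The glutathione peroxidase GPX2 had 479 and 391 CPM against 1.10 and 3.42 (7.54 ± 0.30, and 8.76 without replicate 2 of both lines), while the cystine transporter SLC7A11 (482 and 621 against 147 and 141) and the glutathione synthesis subunit GCLM (252 and 291 against 70.2 and 66.4) came to 1.94 ± 0.28 and 1.993 ± 0.156. TXNRD1, thioredoxin reductase, had 2190 and 2433 CPM against 459 and 476 (2.31 ± 0.14).

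The core of the antioxidant response element, TGACNNNGC, stood in 15% of all promoter windows, in 14% of those of genes at least 4-fold higher and in 12.7% of those at least 4-fold lower. It was found in 7 of the 22 windows of the NRF2 list. Its matches can share bases with the AP-1 word TGANTCA, as in the windows of ME1 and PIR, so the counts of these words are not separate. TXNRD1 (chr12:104215529-104215828, + strand) and GPX2 (chr14:64942696-64942995, - strand) are shown with its matches in capitals, the first as the most abundant and the other as the member with the largest fold among those with a match.
TXNRD1: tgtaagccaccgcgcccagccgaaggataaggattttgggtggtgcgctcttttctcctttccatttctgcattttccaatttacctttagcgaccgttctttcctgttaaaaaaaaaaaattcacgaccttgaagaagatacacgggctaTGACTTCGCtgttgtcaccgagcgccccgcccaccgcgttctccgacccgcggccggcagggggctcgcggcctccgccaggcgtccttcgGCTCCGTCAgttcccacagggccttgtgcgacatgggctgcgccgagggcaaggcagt
GPX2: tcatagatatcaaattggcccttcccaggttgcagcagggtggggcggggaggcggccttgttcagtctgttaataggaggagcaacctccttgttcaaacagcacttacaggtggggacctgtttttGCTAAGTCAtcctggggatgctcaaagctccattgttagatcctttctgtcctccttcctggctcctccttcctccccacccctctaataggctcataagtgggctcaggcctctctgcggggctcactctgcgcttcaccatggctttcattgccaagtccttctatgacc

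Enzymes that oxidise, reduce and conjugate foreign compounds were higher in A549_NT more often than lower. Of 29 aldo-keto reductases and aldehyde dehydrogenases, 15 were higher and 5 lower, and of 32 cytochrome P450, UGT and glutathione transferase genes 21 were higher and 6 lower. AKR1B10 had 5841 and 5326 CPM in A549_NT and 0.192 and 30.4 in B2B_NT (8.49 ± 1.01, and 14.85 without replicate 2 of both lines, on 4 reads in B2B_NT replicate 1). ALDH1A1 had 7737 and 7845 CPM against 1.44 and 46.7 (8.32 ± 0.93, and 12.39 without replicate 2). AKR1C1 (618 and 531 CPM against 0.575 and 3.42) and AKR1C2 (3593 and 3285 against 0.144 and 18.9) are near copies, so reads between them are uncertain. CYP24A1, which breaks down vitamin D, had 1129 and 1254 CPM against 1.10 and 8.43 (7.92 ± 0.51, and 9.99 without replicate 2), and UGT1A6 had 2.84 and 3.19 CPM against 0 and 0, at least 45.7-fold higher against a floor of 3 counts over both B2B_NT libraries. CYP1B1 was lower, with 149 and 156 CPM against 324 and 331 (-1.10 ± 0.11). Export pumps went along with them. Of 33 ABC transporters 17 were higher and 4 lower, among them ABCC3 (669 and 663 CPM against 19.8 and 20.6, 5.04 ± 0.14), ABCG2 (94.0 and 109 against 1.82 and 2.61, 5.50 ± 0.18) and ABCC2 (834 and 924 against 1.63 and 7.69, 7.52 ± 0.42, and 8.99 without replicate 2).

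B2B_NT in turn carried the genes of matrix and of a mesenchymal state. Of 35 tested mesenchymal genes, 23 were lower in A549_NT and 4 higher, 17 and 2 at least 4-fold, with a median log2 fold change of -1.96. FN1 (chromosome 2), the fibronectin of the pericellular matrix, had 319 and 392 CPM in A549_NT and 13610 and 13790 in B2B_NT (-5.27 ± 0.25). The N-cadherin gene CDH2 had 10.0 and 11.9 CPM against 252 and 254 (-4.53 ± 0.15), and the bHLH factor TWIST1 1.72 and 1.70 against 13.5 and 14.5 (-3.03 ± 0.25). Vimentin, the filament most used to mark mesenchymal cells, was lower by less. VIM had 945 and 855 CPM in A549_NT and 1526 and 1581 in B2B_NT (-0.79 ± 0.12). S100A4, a calcium-binding protein also called fibroblast-specific protein, was the main exception, with 449.6 and 364 CPM against 0.910 and 3.46 (7.49 ± 0.35, and 8.94 without replicate 2 of both lines). Markers of fibroblasts summed to 64.0 and 72.3 CPM over 12 genes in A549_NT and to 5139 and 5244 in B2B_NT, with 8 of 11 tested lower and 1 higher.

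Collagens were lower in A549_NT in 22 of 35 tested chains and higher in 10, 19 and 6 at least 4-fold. COL1A1 had 6.22 and 18.9 CPM in A549_NT against 4296 and 4391 in B2B_NT (-8.43 ± 0.37, and -9.43 without replicate 2 of both lines). COL5A1 had 18.3 and 18.7 CPM against 719 and 723 (-5.28 ± 0.12), the basement membrane chain COL4A1 109 and 119.6 against 870 and 888 (-2.94 ± 0.13), and COL8A1 0 and 0.372 against 201 and 200.1 (-10.00 ± 0.34, at least 1206-fold lower in replicate 1). Genes that crosslink and process them moved alike, with 22 of 37 lower and 6 higher. Lysyl oxidase (LOX) had 3.001 and 3.88 CPM against 224 and 215 (-5.99 ± 0.17). Among 40 matricellular and proteoglycan genes, 20 were lower and 8 higher. The thrombospondin THBS1 had 91.9 and 107 CPM against 2090 and 2142 (-4.41 ± 0.15) and tenascin TNC 0.278 and 2.12 against 753 and 776 (-9.29 ± 0.40, and -11.37 without replicate 2). SPP1, osteopontin, was higher in A549_NT, with 226 CPM in both libraries against 0.144 and 1.14 (8.37 ± 0.37, and 10.55 without replicate 2). Metalloproteinases and their inhibitors were lower in 14 of 25 cases and higher in 6, with MMP7, matrilysin, at 18.6 and 20.5 CPM in A549_NT and 0 and 0.122 in B2B_NT. Integrins and laminins split evenly, 13 higher and 12 lower of 30. ITGB4, the hemidesmosome integrin, had 398 and 356 CPM against 50.0 and 52.9 (2.87 ± 0.11), while ITGA5, the fibronectin receptor chain, had 38.3 and 35.7 against 184 and 192 (-2.35 ± 0.11).

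Targets of YAP, the co-activator that reads cell tension through TEAD factors, were lower in A549_NT in 16 of 24 cases and higher in 3, and of 41 actin and SRF target genes 24 were lower and 3 higher. CYR61 (also named CCN1) had 174 and 163 CPM against 987 and 1020 (-2.57 ± 0.16), and CTGF (CCN2) 113 and 105 against 559.6 and 582 (-2.39 ± 0.16). The actin crosslinker TAGLN had 12.1 and 15.1 CPM against 1238 and 1316 (-6.55 ± 0.29) and filamin FLNC 1.95 and 4.73 against 1079 and 1124 (-8.36 ± 0.28, and -9.11 without replicate 2 of both lines). The TEAD word CATTCC stood in 11.1% of all promoter windows, in 12.3% of those of genes at least 4-fold higher, in 12.6% of those at least 4-fold lower and in 5 of 17 windows of the YAP list. The window of CTGF (chr6:131951323-131951622, - strand), shown because it held 3 copies, has them in capitals.
CTGF: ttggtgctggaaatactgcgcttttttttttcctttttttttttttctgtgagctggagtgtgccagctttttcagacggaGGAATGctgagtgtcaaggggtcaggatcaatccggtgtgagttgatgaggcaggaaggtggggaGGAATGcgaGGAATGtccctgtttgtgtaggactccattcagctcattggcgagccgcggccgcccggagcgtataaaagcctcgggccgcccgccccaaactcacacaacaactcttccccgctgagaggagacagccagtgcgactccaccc

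Immediate early genes, which growth signals switch on within minutes, were higher in A549_NT in 15 of 19 cases and lower in none, against a background of 30.4% higher. NR4A1, an orphan nuclear receptor, had 359.8 and 308 CPM against 6.13 and 8.10 (5.54 ± 0.17), and the mRNA-destabilising ZFP36 had 174 and 162 against 18.1 and 18.9 (3.18 ± 0.12). EGR1 had 516 and 479.5 CPM against 263 and 262 (0.93 ± 0.16). Of the 7 AP-1 subunits, on which the study centred, 5 were higher and 1 was lower. At least 4-fold higher were 3 of them (42.9%, against 12.4% of all tested genes), and 0 were at least 4-fold lower. FOS had 323 and 311 CPM against 7.86 and 8.92, and JUN, the lower one, 119.9 and 124 against 240.4 and 245 (-0.99 ± 0.12). The AP-1 word TGANTCA stood in 5.0% of all promoter windows, in 7.12% of those of genes at least 4-fold higher and in 7.23% of those at least 4-fold lower in A549_NT. Feedback genes of the ERK kinase pathway were higher in 10 of 18 cases and lower in 5, among them the phosphatase DUSP5 (230.3 and 202 CPM against 24.3 and 26.3, 3.09 ± 0.13) on one side and the receptor EPHA4 (2.22 and 2.496 against 32.5 and 31.7, -3.76 ± 0.18) on the other. Cyclin D1 (CCND1) had 860.1 and 828 CPM against 48.2 and 49.4 (4.11 ± 0.12), and the 21 genes of the G1 list split into 6 higher and 7 lower, RB1 among the lower ones with 53.2 and 69.5 CPM against 199 and 189.8 (-1.67 ± 0.19).

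Growth factors and receptors differed in both directions, with 20 higher and 18 lower of 52. The EGF-type ligand AREG had 123 and 109.6 CPM against 1.96 and 2.32 (5.75 ± 0.19) and FGFR1 603 and 566 against 113 and 118 (2.33 ± 0.14). PDGFRB, a receptor of mesenchymal cells, had 0.111 and 0.159 CPM against 62.9 and 61.2 (-8.77 ± 0.27), and AXL 335 and 340.1 against 1333 and 1381 (-2.01 ± 0.14). EGFR itself stayed under the size threshold, with 159.7 and 200.5 CPM against 142 and 143 (0.34 ± 0.11, adjusted p = 0.0152).

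The cell cycle inhibitors of chromosome 9 were nearly silent in A549_NT. CDKN2A, which encodes p16 and ARF (chromosome 9), had 0 and 15 reads in A549_NT and 4326 and 5913 in B2B_NT (-9.08 ± 0.38). Its 15 reads were all in replicate 2, the 4 treated A549 libraries had none, and in replicate 1 it was at least 1243-fold lower. CDKN2B, which encodes p15, had 1 and 2 reads against 1848 and 2187, a ratio of 1090 (95% exact binomial interval 373 to 5287), and CDKN2B-AS1 had 0 and 1 against 212 and 170. On one side MTAP, a methionine salvage enzyme, kept 168 and 210 reads against 1508 and 1653 (-2.77 ± 0.15). On the other DMRTA1 had 25 and 42 against 57 and 84 (-0.76), and ELAVL2, an RNA-binding protein, 1 and 2 against 381 and 417, a ratio of 215.6 (73.5 to 1047). Farther out the calls were mixed. MLLT3 was higher with 666 and 709 reads against 125 and 154 (2.60), TUSC1 was lower (-1.92), and KLHL9 (801 and 1010 reads against 1228 and 1405) and CAAP1 (439 and 636 against 696 and 734) were not called. The genes of this stretch other than the named list members were chosen by position. Of the 12 genes in the list of 9p21 and cell cycle inhibitor genes, 10 were lower and 0 higher. SMARCA4 (chromosome 19), the ATPase of the SWI/SNF chromatin remodeller, had 36.4 and 39.3 CPM against 349 in both B2B_NT libraries (-3.21 ± 0.14), and its paralogue SMARCA2 was not called at 54.0 and 55.3 against 67.3 and 61.7 (-0.24 ± 0.12). Of 27 SWI/SNF subunits 9 were lower and 0 higher, DPF3 and SMARCA4 being the ones at least 4-fold lower.

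HOX genes, which record position along the body axis, changed by cluster. In the A cluster 9 of 10 tested genes were higher in A549_NT and none was lower, and the summed level was 75.5 and 72.2 CPM against 1.53 and 1.75. HOXA3 alone made up most of it, with 53.02 and 50.4 CPM against 0.527 and 0.651 (6.43 ± 0.25). In the C cluster 5 of 9 were lower and none higher, with HOXC6 at 3.78 and 3.50 against 13.6 and 14.6 (-1.95 ± 0.18). The B cluster split within itself. HOXB2 (1.56 and 1.27 CPM against 13.9 and 14.8) and HOXB4 (0.667 and 0.850 against 11.6 and 11.9) were lower, HOXB3 between them was not called (-0.05), and 6 of the other genes were higher, such as HOXB7 (21.3 and 20.02 against 8.81 and 11.5, 1.02 ± 0.15). In the D cluster only 3 of 9 genes were tested, and all 3 were higher, though HOXD4 and HOXD9 on few reads. HOXD9 had 1 and 6 reads in A549_NT against 0 and 0, and HOXD4 8 and 11 against 1 and 0.

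**Figure D4:**
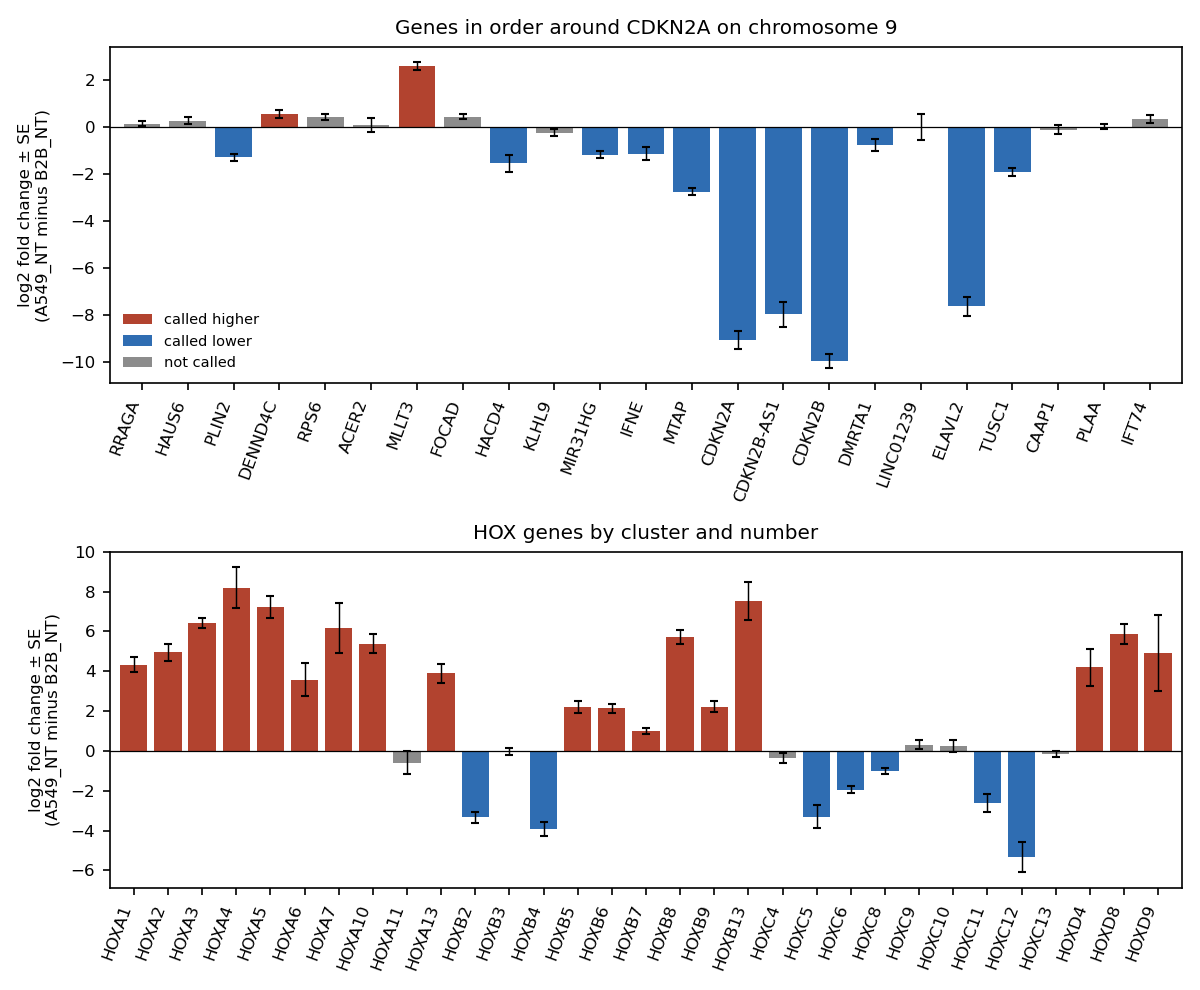
Log2 fold change of A549_NT against B2B_NT with its SE for genes in order around CDKN2A (top, unscaled distances) and for the tested HOX genes (bottom), coloured by call. CDKN2A (-9.08), CDKN2B-AS1, CDKN2B and ELAVL2 reach far below their neighbours, where the last 3 had at most 3 reads in A549_NT so that the length of their bars depends on the fit, and the called HOXA bars point up while the called HOXC bars point down.

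Genes that show the cell to T cells were lower in A549_NT. Of 32 antigen presentation genes 19 were lower and 3 higher, 11 and 1 at least 4-fold. HLA-B had 14.6 and 14.4 CPM in A549_NT against 604 and 636 in B2B_NT (-5.42 ± 0.13), and its light chain B2M 113 and 109 against 531 and 529 (-2.25 ± 0.10). Reads are assigned against 1 reference allele of the variable HLA genes, so their counts are uncertain. The checkpoint ligand CD274 (PD-L1) had 0.278 and 0.478 CPM against 33.6 and 32.4 (-6.41 ± 0.33). The peptide transporter TAP1 was not called (-0.17 ± 0.16, adjusted p = 0.385). Interferon-stimulated genes were lower in 27 of 47 cases and higher in 9. The DNA sensor IFI16 had 0.334 and 0.425 CPM against 55.3 and 54.7 (-7.15 ± 0.30) and ISG15 1.06 and 0.690 against 16.8 and 17.1 (-4.28 ± 0.30). OAS1, a sensor of double-stranded RNA, went the other way with 85.1 and 82.3 CPM against 0.144 and 0.285 (8.53 ± 0.23, and 9.15 without replicate 2 of both lines). Chemokines and cytokines were higher in 15 of 29 cases and lower in 8. The neutrophil attractants CXCL5 (63.2 and 70.6 CPM against 0.623 and 1.02, 6.32 ± 0.32) and CXCL8 (16.9 and 18.1 against 2.30 and 2.61, 2.83 ± 0.40) were higher, and IL6 (0 and 0.0531 against 3.31 and 3.99) and IL11 (20.7 and 21.4 against 74.6 and 82.6, -1.90 ± 0.19) lower. Complement genes were higher in 14 of 22 cases and lower in 4, CLU (clusterin) among the higher ones at 855 and 748 CPM against 49.5 and 54.3 (3.95 ± 0.13). In the prostaglandin list 9 of 19 were higher and 4 lower.

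Few proliferation genes differed 4-fold. Among 46 DNA replication genes 8 were higher and 8 lower, and none differed 4-fold. The median log2 fold change was 0.02 against 0.05 for all genes. Of 40 mitotic genes 13 were lower and 1 higher, 1 of them at least 4-fold. MKI67 had 1132 and 1285 CPM in A549_NT and 1287 and 1248 in B2B_NT (-0.07 ± 0.13, adjusted p = 0.669), and TOP2A 805 and 957 against 924 and 931 (-0.07 ± 0.13, adjusted p = 0.635). The kinetochore protein NDC80 was the mitotic gene that differed most, with 23.96 and 26.5 CPM against 118 and 116 (-2.21 ± 0.13). Of 33 p53 targets 15 were higher and 9 lower, but few differed 4-fold (2 higher and 1 lower). The stress cytokine GDF15 had 85.8 and 79.1 CPM against 3.06 and 3.99 (4.54 ± 0.15), and CDKN1A, the p21 inhibitor, was not called (0.24 ± 0.10, adjusted p = 0.0576). In metabolism, 19 of 39 hypoxia and glycolysis genes were higher and 12 lower, with carbonic anhydrase CA12 at 989 and 1007 CPM against 2.54 and 8.39 (7.48 ± 0.35, and 8.60 without replicate 2 of both lines) and the lactate exporter SLC16A3 at 9.56 and 8.34 against 306 and 326 (-5.14 ± 0.14). Cholesterol and fatty acid synthesis genes split into 13 higher and 11 lower of 41. At least 4-fold higher were 4.88% and at least 4-fold lower 9.76%, against 12.4% and 9.13% of all tested genes.

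Zinc finger genes of chromosome 19 stood apart from their neighbours. Many of them encode KRAB-type repressors that bind transposable elements, and they lie in large clusters of related copies. Of 233 tested genes with a ZNF symbol on chromosome 19, 163 (70%) were lower in A549_NT and 22 (9.44%) higher, 117 and 2 at least 4-fold, with a median log2 fold change of -2.10. The symbol also took in antisense RNAs such as ZNF528-AS1, the pseudogene ZNF137P and the joint locus ZNF625-ZNF20, each of these called lower. The counts were not repeated without such loci. Of the 893 other tested genes of the chromosome 19.3% were lower and 41.1% higher (median 0.30), and ZNF genes elsewhere were lower in 40.2% of 254 cases. The clusters differed. Between 10 and 15 Mb (hg38) 25 of 26 ZNF genes were lower and none higher, with a median of -6.91, while the other 103 genes of that window had a median of -0.29. Between 20 and 25 Mb 20 of 21 were lower (median -6.43), between 35 and 40 Mb 23 of 30 (-4.11) and between 50 and 55 Mb 31 of 38 (-4.60), but between 55 and 60 Mb 32 of 59 (-0.63). The medians of -6.91 and -6.43 fall on genes with few or no reads in A549_NT, so their size depends on the fit. ZNF730, at -6.43, had no read in A549_NT and 11 and 14 in B2B_NT. Its bound was 6.75-fold lower, against a floor of 3 counts over both A549_NT libraries. The following examples were chosen after their values were seen. ZNF100 had no read in A549_NT and 20.6 and 18.2 CPM in B2B_NT, at least 237-fold lower against a floor of 3 counts over both A549_NT libraries, and ZNF440 (17.1 and 17.3 CPM in B2B_NT) at least 211-fold. ZNF91 had 0.0556 and 0.159 CPM against 37.5 and 32.9. ZNF43, which lies beside ZNF100, went the other way with 3.17 and 4.46 CPM against 0.192 and 0.489 (3.42 ± 0.45). Over all 233 genes, 71 and 64 were under 0.1 CPM in A549_NT against 2 in each B2B_NT library, and 42 to 52 in the 4 treated A549 libraries against 0 to 3 in the treated B2B ones. Alignments at several positions, which were not counted, made up 24.7 and 24.2% in A549_NT and 17.3 and 17.7% in B2B_NT, and their part in these counts was not tested.

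**Figure D5:**
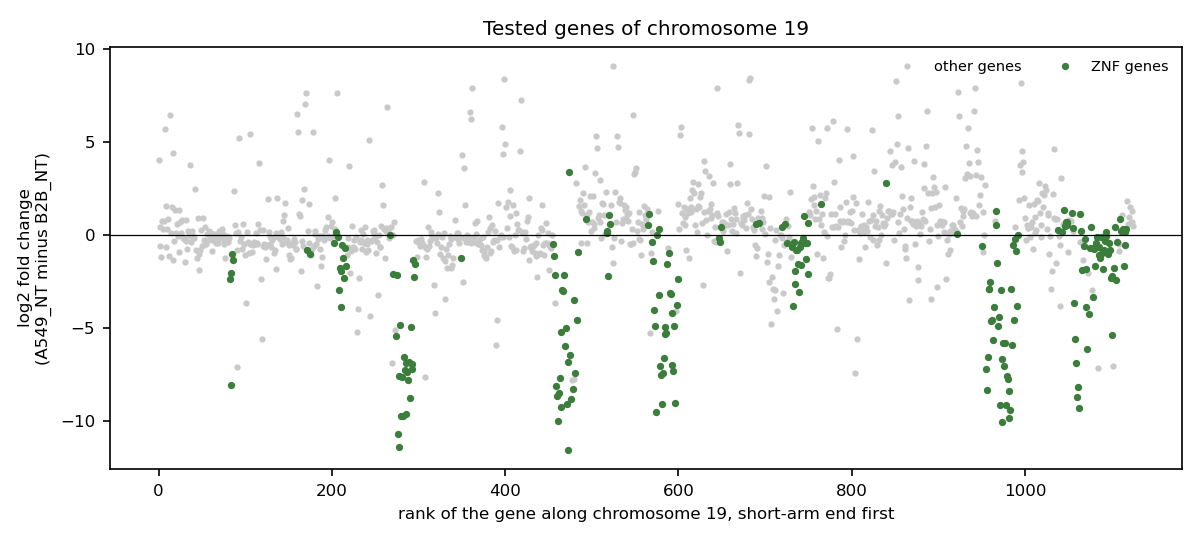
Log2 fold change of A549_NT against B2B_NT for the 1126 tested genes of chromosome 19, placed by rank along the chromosome (x axis), with ZNF genes in green and other genes in grey. The green points drop far below 0 in several clusters (window medians down to -6.91), and the grey points of the right-hand side centre above 0. The depth of the points of genes with few or no reads in A549_NT depends on the fit.

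Neighbouring genes also differed by position. The other genes of chromosome 19 had medians of -0.07 to -0.29 in the windows from 0 to 20 Mb and of 0.60 to 1.53 in those from 30 to 60 Mb, and only 3 lay between 20 and 25 Mb. Across chromosomes, median log2 fold changes ran from -0.44 on chromosome 13 and -0.38 on chromosome 5 to 0.40 on chromosome 8 and 0.44 on chromosome 2. On chromosome 13 16.4% of 292 genes were higher and 43.5% lower, and on chromosome 2 43.5% of 1027 were higher and 16.7% lower. Replicate 1 of each line alone, over genes with reads in both lines, gave medians of -0.54 for chromosome 13 and 0.38 for chromosome 2.

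Most of the 4-fold differences were also seen between the treated libraries, which had no part in the contrast itself but shared its fit, filter and estimate of the spread. Of the 2032 genes at least 4-fold higher in A549_NT, 1725 (84.9%) had all 4 treated A549 libraries above all 4 treated B2B libraries, and 1 the reverse. Among all tested genes 25.2% lay above and 23% below in this sense. Of the 1495 genes at least 4-fold lower, 1173 (78.5%) lay below and 0 above. SMARCA4, for example, stayed at 12.4 to 25.0 CPM in treated A549 and 216 to 329 in treated B2B, CCND1 at 642 to 717 against 38.2 to 71.4, and HLA-B at 34.0 to 40.9 against 630 to 738. MUC5AC stayed above B2B (0 to 0.113) but at 48.3 to 72.8 CPM. Genes of the immediate early and AP-1 lists given above were less even. FOS overlapped, at 50.8 to 141 CPM against 11.7 to 69.4, and EGR1 was reversed, at 71.8 to 249 against 274 to 386. NR4A1 (42.9 to 73.5 against 10.3 to 34.4) and ZFP36 (43.2 to 52.2 against 17.4 to 27.9) stayed higher. JUN (36.5 to 82.6 against 90.3 to 178) stayed lower. The treated cells had received an inhibitor, so these libraries are no replicates of the untreated ones.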

How the data were processed

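Total RNA of both lines was made into polyadenylated mRNA libraries. Per the study's methods and the submitters' processing notes, the authors aligned reads to hg38 with STAR 2.7.10a and counted them per gene with HTSeq 1.99.2, and the deposited values are raw counts for 26485 gene symbols in 12 libraries, 2 for each of 6 groups. Neither the annotation release nor the strand setting is given in the sources used here. HTSeq did not count reads placed at several positions. Rows that name no gene (23.8 to 25.9% without a feature, 1.94 to 2.03% ambiguous in the untreated libraries) were left out.

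Groups came from the sample labels. Counts were fitted with edgeR 4.0.16 in R 4.3.3 (TMM scaling, filterByExpr with a minimum count of 10, quasi-likelihood F test) over all 12 libraries in 6 groups, which share 1 estimate of the spread, and A549_NT was contrasted with B2B_NT. P-values were adjusted by the Benjamini-Hochberg method over 16373 genes. A gene was called at an adjusted p under 0.05 and a log2 fold change of at least 0.5 in size. The SE was taken from the F statistic. A gene without reads in a group is given by its bound against 3 counts, and one with 1 to 3 reads by its ratio with a 95% exact binomial interval, both for counting error only. The steps were tested on simulated data. Symbols were matched to the GENCODE annotation of hg38, which gave positions and exon lengths, for 24262 genes. Of these, 1339 were matched through older symbols listed by RefSeq.

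Named genes were 128 core genes, the 12 most abundant genes at least 8-fold apart in each direction, and up to 4 members of each of 54 lists with the largest fold at 10 CPM or more, 294 in all. Genes named outside this rule are marked in the text. The comparison, the lists and the named genes were chosen with earlier results of these data known. The replicate numbers were not taken to pair the libraries across lines, and whether same-numbered libraries shared a batch was not settled. DESeq2 1.42.0, other scalings and filters, a replicate block and fits without single libraries were tried as alternatives. Results for some genes are not reported here.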

Additional observations from a re-analysis of the deposited data

Results flagged for a closer look

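The share of alignments that fell at several genome positions, which the gene counts leave out, differed between the lines beyond the spread of their libraries. It was 24.7% and 24.2% in A549_NT and 17.3% and 17.7% in B2B_NT, and it is listed here because it is a signal outside the gene counts.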

How the results depend on the processing

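No alternative turned a call in the opposite direction. Genes called higher numbered 4053 to 5192 and genes called lower 3371 to 5018 over all alternatives, with the stricter test against a log2 fold of 0.5 at the low end of both. Scaling by library size alone moved the median log2 fold change of all genes from 0.05 to -0.07 and gave 4445 higher and 5018 lower. Without 1 library the counts were 4552 to 4760 higher and 3994 to 4164 lower, and without replicate 2 of both lines, with the spread taken from the other groups, 4327 and 3786.

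The replicate number as a block (replicate block) gave 4931 higher and 4315 lower. Deviations of same-numbered libraries from their line means correlated at -0.06 over all tested genes and at -0.13 over expressed genes, so the numbers were not taken as pairs. Crossing the numbers of A549_NT, an alternative chosen after seeing the data, gave 4915 and 4293. The choice of cross-line genes on replicate 2 was also added after seeing the data.

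List counts moved by more than 1.5 times in 48 cases against 1680 within it, all in counts of 12 or fewer. Liver and gut genes called lower went from 2 to between 1 and 4, and to 1 whichever single library was left out. Ciliated genes called higher went from 3 to 1 without A549_NT replicate 1, B2B_NT replicate 1 or B2B_NT replicate 2. Without replicate 2 of both lines mesenchymal genes called higher went from 4 to 2, fibroblast markers called higher from 1 to 0 and alveolar genes called lower from 4 to 2. Among single genes, 31 values lost their call and 7 gained one, against 4520 that did neither. Depth limits genes with a few reads in one line, and low-level reads in replicate 2 limit the size of the largest folds.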

Other observations

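Several lists not described above also held large differences. WNT and Notch genes were higher in A549_NT in 31 of 54 cases and lower in 13. The ubiquitin ligase RNF43, a brake on WNT receptors, had 71.5 and 71.4 CPM in A549_NT and 0.287 and 0.977 in B2B_NT (log2 fold change 6.75 ± 0.27, and 7.93 without replicate 2 of both lines), whereas the non-canonical ligand WNT5A had 1.17 and 1.27 against 75.5 and 70.8 (-5.90 ± 0.24). Among TGF-beta and BMP genes 21 of 45 were higher and 15 lower. The BMP antagonists GREM1 (0.0556 and 0.531 CPM against 187 and 191.6) and NOG (1.28 and 1.49 against 58.0 and 67.3) were both lower, at -9.28 ± 0.33 (-11.55 without replicate 2 of both lines, on 1 read in A549_NT replicate 1) and -5.49 ± 0.27, and the receptor BMPR1B was higher with 44.5 and 50.7 against 1.68 and 1.47 (4.92 ± 0.19).

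Genes of nerve and endocrine cells were called higher in 7 of 9 tested cases and lower in 1. DDC, the decarboxylase that makes dopamine and serotonin, had 31.5 and 29.7 CPM in A549_NT and 0 and 0.244 in B2B_NT, and the granule protein CHGB had 17.4 and 17.3 against 0.623 and 0.407 (5.08 ± 0.24). Of 6 tested members of the cancer testis list 4 were higher, each at least 4-fold. The 2 lower ones were MAGED1 and MAGED2, which both lines expressed, so the list is not mixed outside the MAGED genes. PRAME, an antigen of tumours and testis, had 107 and 103 CPM against 0 and 0.407 (8.87 ± 0.34, at least 745-fold higher in replicate 1), while MAGED1 had 101 and 93.2 against 219.7 and 228 (-1.21 ± 0.10).

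Among insulin-like growth factor binding proteins and their relatives 5 of 10 were higher and 4 lower. IGFBP7 had 2.28 and 2.60 CPM in A549_NT against 202.5 and 225 in B2B_NT (-6.45 ± 0.15), and IGFBP1, a secreted protein of liver, had 28.9 and 29.0 against 0.287 and 0.326 (6.52 ± 0.34). The long noncoding RNA MEG3 had 8.17 and 9.29 CPM against 120.2 and 123 (-3.80 ± 0.20), and CASC9 had 13.8 and 13.1 CPM in A549_NT and no read in B2B_NT, at least 204-fold higher against a floor of 3 counts over both B2B_NT libraries. Of the 542 tested genes of the study's own cancer gene list, 133 were higher and 158 lower. The study chose this list, so it is not independent evidence of a direction. At least 4-fold higher were 10.7% and at least 4-fold lower 7.56%, near the 12.4% and 9.13% of all tested genes.

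The libraries of A549_NT differed from each other by transcript length. The median log2 difference of replicate 2 minus replicate 1 was -0.14 for genes with under 2 kb of exon and 0.09 for those over 8 kb, against 0.08 and -0.01 in B2B_NT. Markers of endothelial cells summed to 1.6 and 1.7 CPM in A549_NT and 3.2 and 2.7 in B2B_NT, and markers of immune cells to 56.1 and 51.8 against 15 and 15.1, mostly CD68 (47.9 and 43.8 against 11.2 and 11.5).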
